A study of Homo sapiens with 12 samples.

Results

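The messenger RNAs of the hnRNP and SR families, 2 groups of RNA-binding proteins that regulate splicing, were followed through a purification of RNA on a Halo-tagged protein. Members were the rows of the deposited normalized count table whose symbol was HNRNP or SRSF followed by its letter or number and whose value reached 10 in at least 3 of the 12 libraries. They were 32 genes, 20 hnRNP and 12 SR, among 39 rows with such a symbol and 25369 rows in all. The other 7 rows were HNRNPH2, a relative of HNRNPH1, and 6 copies or pseudogenes. They peaked at 0 to 6 and were not tested. A separate row, RPL36A-HNRNPH2, read 0 in every library, and how reads that match it and HNRNPH2 were counted is not stated. HEK293T cells, a human line derived from embryonic kidney, were transfected with a plasmid for the Halo tag fused to TNIP2 residues 196-346 (TNIP2) or for the Halo tag alone (Control). RNA was sequenced, after removal of ribosomal RNA, from the material purified through the tag (Pulldown) and from the whole-cell extract (Input). The 4 groups were TNIP2 Pulldown, TNIP2 Input, Control Pulldown and Control Input, with 3 libraries each. The construct is a fragment of TNIP2, delivered by transfection into cells that keep their own TNIP2 gene.

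hnRNP proteins coat newly made transcripts, and many of them repress exons or bind particular base patterns. SR proteins carry a domain rich in serine and arginine, bind exons and promote their inclusion, and are regulated by kinases that phosphorylate that domain. Genes of both families are known for controlling their own messages, often by splicing them into forms that are degraded, and some of these messages are partly kept in the nucleus. TNIP2 is an adaptor that binds ubiquitin chains and damps NF-kB signalling. The values used here are per gene and do not separate the forms of a message.

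Whole reads recovered from the deposited FPKM values numbered 10313514 to 29534524 in TNIP2 Pulldown, 8898811 to 16752941 in TNIP2 Input, 3591159 to 6405080 in Control Pulldown and 13793334 to 20784696 in Control Input. The fewest recovered reads of a member in a library were 30, for HNRNPUL2. On the first principal component, with 66.7% of the variance, the TNIP2 Pulldown libraries stood at 94.9 to 112 and the other 9 libraries at -37.5 to -29.3. On the second, with 11.1%, TNIP2 Pulldown 3 stood at 47.8 and TNIP2 Input 3 at 54.7, with the other 10 libraries at -25.7 to 2.84. Results that turn on these libraries are given with and without them. The TNIP2 transcript read 51905 to 193013 normalized counts in TNIP2 Pulldown and 13318 to 46568 in TNIP2 Input, against 309 to 1472 in Control Pulldown and 272 to 304 in Control Input. All 7 HEK293 markers (VIM, KRT8, KRT18, NEFM, NEFL, NES and LIN28B) reached 10 in every library, with summed values of 11479 to 12794 in TNIP2 Pulldown, 7552 to 8285 in TNIP2 Input, 7461 to 8295 in Control Pulldown and 8096 to 8410 in Control Input. Of 10 markers of other cell types, PTPRC, CD3E, HBA1, HBB, PECAM1 and CDH5 stayed below 10 in every library, and the list summed to 161 to 179, 104 to 141, 58 to 161 and 121 to 153 in the same 4 groups. The part of either marker list in the results below was not tested.

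In RNA purified with the TNIP2 fragment, 13 of the 32 genes were higher than in the matching Input, 6 were lower and 13 did not pass the test. SRSF2, HNRNPDL and HNRNPD stood highest, between 4.94-fold and 5.38-fold, while SRSF9 stood lowest, at 3.42-fold below Input. A gene was called at an adjusted p under 0.05 by limma on log2(normalized count + 1), with Benjamini-Hochberg adjustment over all 14627 genes tested, and each fold change is on that scale. The share of members called was 59.4%, beside 58.1% of all genes tested, and the shares called higher and lower among all genes were 29.8% and 28.3%. Libraries did not overlap for the same 13 and 6 members, beside 29.4% of all genes upward and 28.1% downward, 57.5% in all. The members' median log2 change was 0.26, beside 0.01 over all genes. This split of 13 higher and 6 lower depended on the scaling. It was 9 and 10 under quantile normalization and 8 and 12 after centring on ribosomal protein genes. The median log2 change of all genes was -0.02 and -0.53 under these scalings. Shares of all genes called under them are not given here. These counts therefore do not separate a shift of the members from a shift of all genes. Among the 12 SR genes 6 were higher and 2 lower, with a median of 0.54, and among the 20 hnRNP genes 7 were higher and 4 lower, with a median of 0.20. The replicates are not said to come from separate transfections, so the p-values reflect only how these libraries scatter, which may be technical scatter. Pulldown over Input gives the level of a message in purified RNA relative to the extract. Such bulk RNA does not show how many cells held the message or how much each cell held.

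**Figure D1:**
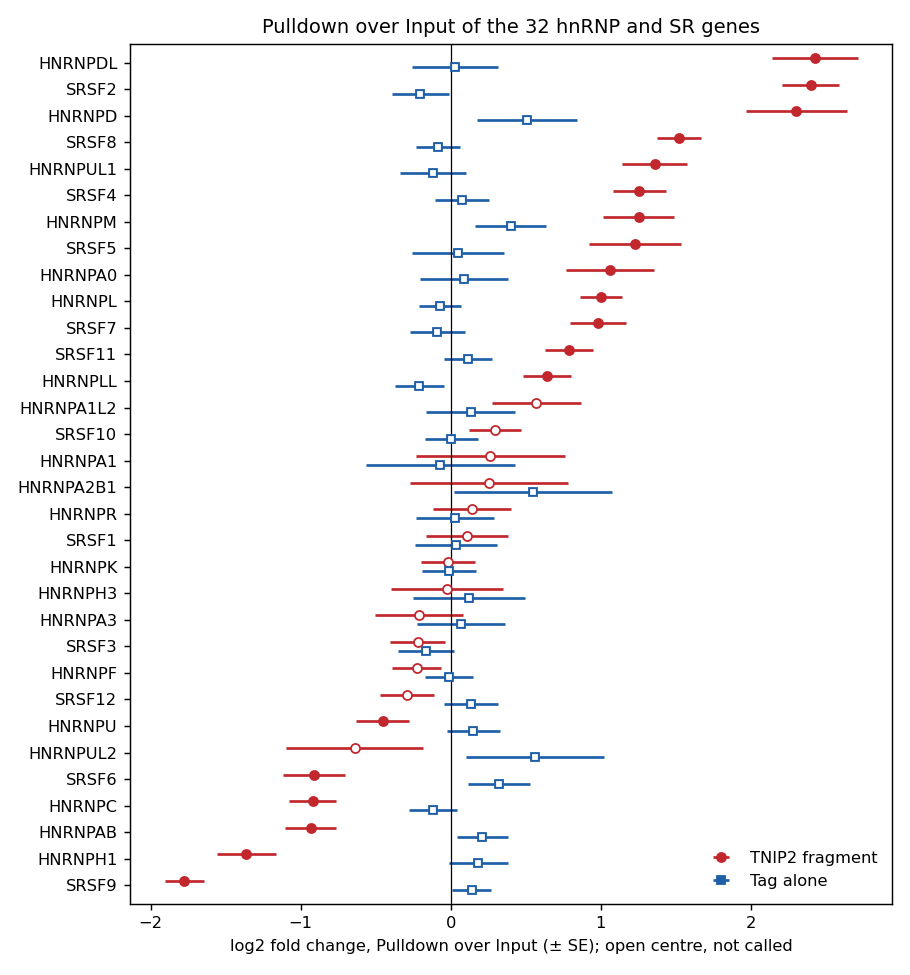
Log2 fold change of Pulldown over Input (x axis, bars ± SE) for the 32 genes (y axis), with the TNIP2 fragment as circles and the tag alone as squares; an open centre marks a gene that was not called. The circles spread from -1.77 for SRSF9 to 2.43 for HNRNPDL, whereas all 32 squares lie between -0.21 and 0.56 and none was called.

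SRSF2, which binds exonic enhancers and is the SR protein used to mark nuclear speckles, had 28155, 41224 and 24078 normalized counts in TNIP2 Pulldown, against 5207, 5103 and 7162 in TNIP2 Input. It had 5109, 5335 and 4892 in Control Pulldown and 5672, 6086 and 5871 in Control Input. All 3 TNIP2 Pulldown libraries lay above every other library, while the other 9 lay close together. Its log2 change was 2.40 (SE 0.19, adjusted p = 1.4e-07) over TNIP2 Input and 2.57 (adjusted p = 6.6e-08) over Control Pulldown. SRSF8, an SR gene that arose as a copy of SRSF2, had 2228, 2368 and 1928 in TNIP2 Pulldown, against 772, 657 and 847 in TNIP2 Input. Its libraries did not overlap either, and the log2 change was 1.52 (SE 0.14, adjusted p = 6.3e-07). How reads that match both genes were counted is not stated in the labels, so the values of SRSF8 are uncertain to the extent that such reads were shared.

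SRSF4, SRSF5 and SRSF6 are close relatives with paired RNA-recognition domains, and their messages did not move together. SRSF4 had 4304, 4618 and 3793 normalized counts in TNIP2 Pulldown, against 1851, 1972 and 1511 in TNIP2 Input. SRSF5 had 4368, 8103 and 3461 in TNIP2 Pulldown, against 2355, 2907 and 1385 in TNIP2 Input. Both were higher in all 3 Pulldown libraries than in any Input library, by a log2 change of 1.26 (SE 0.18, adjusted p = 2.6e-05) for SRSF4 and 1.23 (SE 0.31, adjusted p = 0.0031) for SRSF5. The call of SRSF5 was lost under quantile normalization (0.61, adjusted p = 0.098). SRSF6 went the other way, with 1200, 1600 and 2194 in TNIP2 Pulldown, against 2853, 2877 and 3426 in TNIP2 Input. Its Pulldown libraries lay below every Input library of that construct, and it fell by 0.91 on the log2 scale (SE 0.21, adjusted p = 0.0016).

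SRSF7, an SR protein that also helps to export messages from the nucleus, had 6911, 8281 and 8154 normalized counts in TNIP2 Pulldown, against 3578, 3080 and 5491 in TNIP2 Input. The groups did not overlap, and the log2 change was 0.98 (SE 0.18, adjusted p = 3.4e-04), a call lost under quantile normalization (0.35, adjusted p = 0.096) and after centring on ribosomal protein genes (0.45, adjusted p = 0.13). SRSF11 had 5089, 5606 and 7242 in TNIP2 Pulldown, against 3058, 3321 and 3953 in TNIP2 Input. The groups did not overlap. Its log2 change of 0.79 (SE 0.16, adjusted p = 6.2e-04) was likewise lost under both scalings, at 0.14 (adjusted p = 0.51) and 0.26 (adjusted p = 0.39).

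SRSF9, a relative of SRSF1, had 753, 677 and 825 normalized counts in TNIP2 Pulldown, against 2685, 2554 and 2463 in TNIP2 Input. It had 2898, 2560 and 2821 in Control Pulldown and 2437, 2502 and 2564 in Control Input. Every TNIP2 Pulldown library lay below the other 9, and the message had the smallest spread within groups of all members, at an SD of 0.093 on the log2 scale. It was 3.42-fold lower in TNIP2 Pulldown than in TNIP2 Input (SE 0.13 on the log2 scale, adjusted p = 7.3e-08) and 3.67-fold lower than in Control Pulldown (adjusted p = 4.2e-08). SRSF1, the founding member of the family, did not pass the test. It had 8843, 20549 and 7684 in TNIP2 Pulldown, against 9165, 9901 and 12251 in TNIP2 Input, and TNIP2 Pulldown 2 alone lay above all Input libraries. Under quantile normalization its log2 change of 0.11 (SE 0.28, adjusted p = 0.75) became -0.68 (adjusted p = 0.025).

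The remaining SR genes, SRSF3, SRSF10 and SRSF12, had overlapping TNIP2 Pulldown and TNIP2 Input libraries. SRSF3, another adaptor in messenger RNA export, had a log2 change of -0.22 (SE 0.18, adjusted p = 0.32). This became -0.87 (adjusted p = 3.6e-04) under quantile normalization and -0.75 (adjusted p = 0.0030) after centring on ribosomal protein genes. SRSF10, known as a splicing repressor when dephosphorylated, had 0.30 (SE 0.18, adjusted p = 0.16), which became 0.45 (adjusted p = 0.027) without TNIP2 Pulldown 3. SRSF12, the least abundant SR message, had -0.29 (SE 0.18, adjusted p = 0.18), or -0.82 (adjusted p = 0.0023) after centring on ribosomal protein genes.

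**Figure D2:**
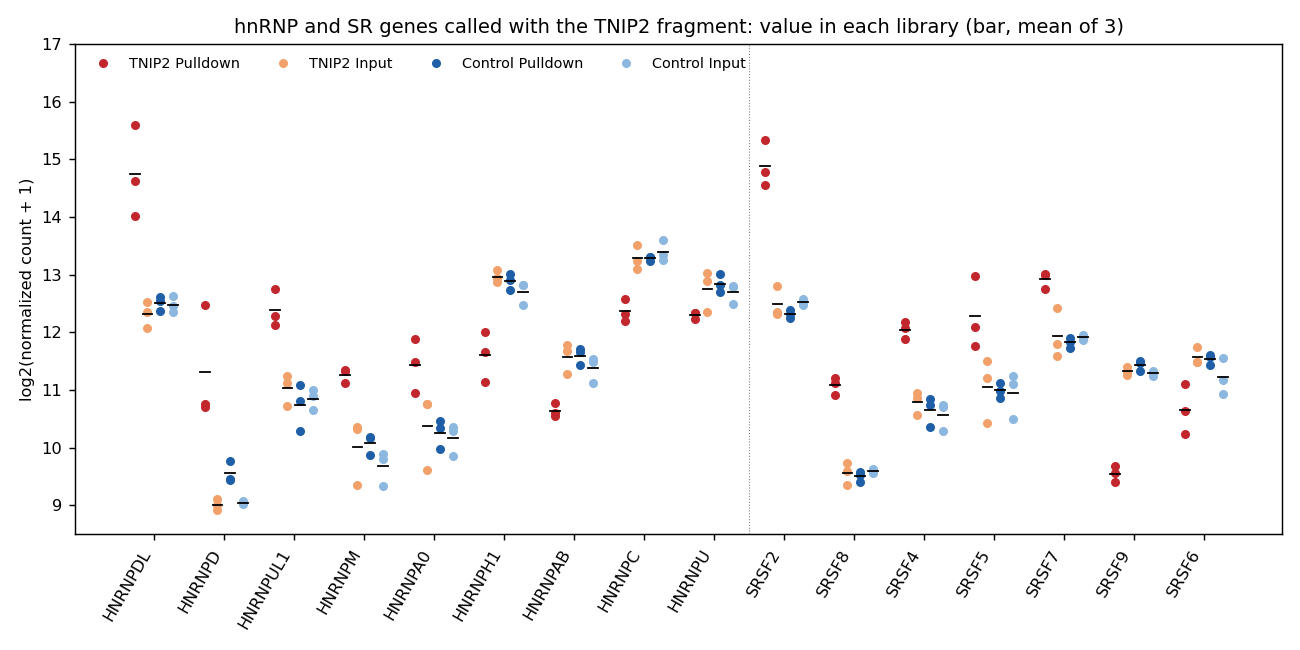
Log2(normalized count + 1) (y axis) in each of the 12 libraries for 16 called genes (x axis, hnRNP genes left of the dotted line), with TNIP2 Pulldown, TNIP2 Input, Control Pulldown and Control Input from left to right within each gene; points are libraries and bars are means of 3. TNIP2 Pulldown stands apart from the 3 other groups, which lie near each other, above them for SRSF2 and HNRNPDL and below them for SRSF9 and HNRNPH1.

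The make-up of SR messages was set per length, in FPKM. SRSF2 held 40.5%, 41.7% and 36.7% of the summed FPKM of SRSF1 to SRSF12 in TNIP2 Pulldown, against 13.2%, 12.9% and 16.1% in TNIP2 Input. SRSF9 held 2.76%, 1.75% and 3.20% in TNIP2 Pulldown, against 17.4%, 16.4% and 14.1% in TNIP2 Input. For both genes the 3 Pulldown shares lay apart from all Input shares, and the shares with the tag alone, 12.8% to 15.7% for SRSF2 and 15.8% to 18.8% for SRSF9, lay near those of TNIP2 Input. By mean FPKM, SRSF2 (924.1) was followed by SRSF5 (282.7) and SRSF7 (274.8) in TNIP2 Pulldown, with SRSF9 (56.8) in place 8. In TNIP2 Input the order began with SRSF9 (194.0), SRSF2 (172.8) and SRSF1 (162.6), and these neighbours differed little relative to their libraries, since SRSF2 led in TNIP2 Input 3. The summed SR FPKM was 2061, 2931 and 1945 in TNIP2 Pulldown, against 1168, 1176 and 1319 in TNIP2 Input.

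**Figure D3:**
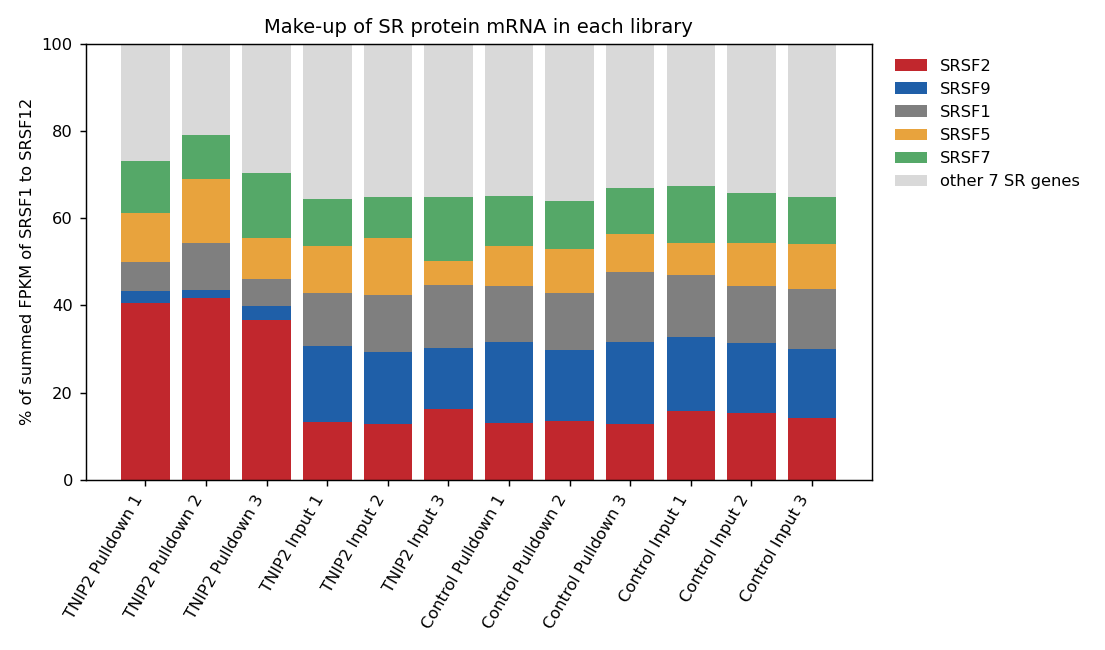
Share of the summed FPKM of SRSF1 to SRSF12 (y axis, %) held by SRSF2, SRSF9, SRSF1, SRSF5, SRSF7 and the other 7 SR genes in each of the 12 libraries (x axis). SRSF2 fills 36.7% to 41.7% of the 3 TNIP2 Pulldown columns and 12.8% to 16.1% of the other 9, and SRSF9 is thin in TNIP2 Pulldown alone.

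HNRNPDL, HNRNPD and HNRNPAB are relatives that bind AU-rich RNA. HNRNPD is known for steering the turnover of such messages, and it and HNRNPDL lie near each other on chromosome 4. HNRNPDL had 25194, 49797 and 16515 normalized counts in TNIP2 Pulldown, against 5252, 5906 and 4295 in TNIP2 Input. HNRNPD had 1735, 5694 and 1660 in TNIP2 Pulldown, against 483, 549 and 511 in TNIP2 Input. For both, all TNIP2 Pulldown libraries lay above all others, and TNIP2 Pulldown 2 stood well above its fellow libraries. The log2 change was 2.43 (SE 0.29, adjusted p = 5.0e-06) for HNRNPDL and 2.30 (SE 0.33, adjusted p = 3.5e-05) for HNRNPD. The same-numbered Pulldown-to-Input ratios were 4.80, 8.43 and 3.85 for HNRNPDL and 3.59, 10.4 and 3.25 for HNRNPD. HNRNPAB had 1547, 1503 and 1754 in TNIP2 Pulldown, against 3519, 3264 and 2473 in TNIP2 Input, without overlap. It fell by 0.93 on the log2 scale (SE 0.17, adjusted p = 2.5e-04).

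As background on the genes, the 150 bases upstream of a start of each gene in the HNRNPD and SRSF4 subgroups are shown. They come from RefSeq on build GRCh38.p14, and the deposited tables, made on hg19, hold no coordinates. These bases lie outside the messages, and any link between them and the change of Pulldown over Input was not tested. Capitals mark matches on either strand. The GC box was searched as GGGCGG. The CCAAT box was searched as its name spells it. The TATA box was searched as TATAAA, and the core of ETS factor sites as CCGGAAG. No match overlaps another in the windows shown. The genes that were higher in TNIP2 Pulldown were HNRNPDL (chr4:82430463-82430612, minus strand, the more upstream of 2 listed starts), HNRNPD (chr4:82373992-82374141, minus), SRSF4 (chr1:29181901-29182050, minus) and SRSF5 (chr14:69766992-69767141, plus). Those that were lower were HNRNPAB (chr5:178204383-178204532, plus) and SRSF6 (chr20:43457746-43457895, plus).
HNRNPDL: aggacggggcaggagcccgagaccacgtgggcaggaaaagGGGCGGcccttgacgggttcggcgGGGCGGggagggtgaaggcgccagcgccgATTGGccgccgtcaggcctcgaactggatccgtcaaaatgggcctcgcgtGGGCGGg
HNRNPD: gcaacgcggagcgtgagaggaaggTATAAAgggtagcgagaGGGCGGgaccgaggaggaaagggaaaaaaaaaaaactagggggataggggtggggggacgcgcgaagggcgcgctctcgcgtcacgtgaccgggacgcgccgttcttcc
HNRNPAB: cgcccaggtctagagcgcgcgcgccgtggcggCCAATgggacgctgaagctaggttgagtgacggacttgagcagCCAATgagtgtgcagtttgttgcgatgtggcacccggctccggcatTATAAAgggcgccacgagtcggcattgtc
SRSF4: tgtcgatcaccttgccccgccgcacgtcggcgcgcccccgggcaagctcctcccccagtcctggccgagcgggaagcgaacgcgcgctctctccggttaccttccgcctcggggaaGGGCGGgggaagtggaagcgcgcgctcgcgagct
SRSF5: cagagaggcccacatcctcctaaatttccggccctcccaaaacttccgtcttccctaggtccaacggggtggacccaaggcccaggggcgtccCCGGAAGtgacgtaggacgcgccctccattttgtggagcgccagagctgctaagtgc
SRSF6: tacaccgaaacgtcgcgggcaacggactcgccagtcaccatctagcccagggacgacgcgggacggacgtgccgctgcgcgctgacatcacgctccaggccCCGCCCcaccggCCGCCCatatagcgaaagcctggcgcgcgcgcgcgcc
HNRNPD and HNRNPAB both hold a match to TATAAA in this window. It lies near the start in HNRNPAB and near the upstream end of the window in HNRNPD. Whether either match works as a TATA box was not tested. In the 250 bases upstream, the ETS core was found at HNRNPD, SRSF4 and SRSF5, and not at HNRNPDL, HNRNPAB or SRSF6. The RefSeq table lists 44 starts for 30 of the members, and shares were taken over starts. A GC box was found at 26 of these 44 starts (59.1%, in 20 genes), beside 42.6% of all 35116 listed starts. A CCAAT box was found at 20 starts (45.5%, in 17 genes, beside 32.0% of all starts), a TATA box at 6 (13.6%, beside 10.7%) and an ETS core at 5 (11.4%, beside 8.52%). The NRF1 motif and ATGGCGGC (YY1 core) were found at 0 of the 44, beside 1.03% and 1.30% of all starts. The median GC content of this window was 65.0% over the starts of the members and 58.0% over all starts. SRSF2 and HNRNPA1 had no entry.

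HNRNPUL1, a relative of the nuclear scaffold protein HNRNPU, had 4497, 6877 and 5004 normalized counts in TNIP2 Pulldown, against 2228, 2436 and 1689 in TNIP2 Input. Its groups did not overlap, and the log2 change was 1.36 (SE 0.22, adjusted p = 9.0e-05). HNRNPU itself had 5147, 5195 and 4808 in TNIP2 Pulldown, against 7587, 8321 and 5240 in TNIP2 Input. All its Pulldown libraries lay below the Input libraries, narrowly so for TNIP2 Input 3, and it fell by 0.45 on the log2 scale (SE 0.18, adjusted p = 0.039). That call was lost with the genes below the filter included (adjusted p = 0.074), with only the 6 libraries compared (0.12), and without TNIP2 Input 1 (-0.39, adjusted p = 0.13) or TNIP2 Input 2 (-0.32, adjusted p = 0.17). It was also narrowly lost on leaving out any TNIP2 Pulldown library (0.058 to 0.064) or Control Pulldown 1, Control Input 2 or Control Input 3 (0.051 to 0.053). Other settings strengthened it. With both TNIP2 libraries numbered 3 left out the change was -0.62 (adjusted p = 0.0015). Over all alternatives it ran from -1.10 to -0.32, with adjusted p of 1.8e-04 to 0.17. An antisense transcript of the locus, HNRNPU-AS1, read 382, 709 and 341 in TNIP2 Pulldown, against 1468, 2386 and 776 in TNIP2 Input, and without a stated strand setting reads of the overlapping genes cannot be told apart.

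HNRNPM, a splicing regulator that binds GU-rich RNA, had 2221, 2574 and 2602 normalized counts in TNIP2 Pulldown, against 1307, 1285 and 654 in TNIP2 Input. HNRNPA0, which binds AU-rich messages, had 2883, 3759 and 1973 in TNIP2 Pulldown, against 1737, 1726 and 783 in TNIP2 Input. Neither overlapped, although TNIP2 Input 3 was the lowest of the 6 TNIP2 libraries for both. The log2 changes were 1.25 (SE 0.24, adjusted p = 3.6e-04) for HNRNPM and 1.06 (SE 0.29, adjusted p = 0.0062) for HNRNPA0. The call of HNRNPA0 was lost under quantile normalization (0.57, adjusted p = 0.11) and after centring on ribosomal protein genes (0.53, adjusted p = 0.094).

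The relatives HNRNPL and HNRNPLL, which bind CA-rich RNA, were both higher. HNRNPL had 7254, 8058 and 8468 normalized counts in TNIP2 Pulldown, against 3837, 3701 and 4336 in TNIP2 Input, a log2 change of 1.00 (SE 0.14, adjusted p = 2.3e-05). HNRNPLL had 907, 963 and 1077 in TNIP2 Pulldown, against 574, 558 and 770 in TNIP2 Input, a log2 change of 0.64 (SE 0.16, adjusted p = 0.0033). No Pulldown library overlapped an Input library in either gene. After centring on ribosomal protein genes the values were 0.47 (adjusted p = 0.066) for HNRNPL and 0.11 (adjusted p = 0.71) for HNRNPLL.

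HNRNPH1, which binds runs of G, had 2253, 4113 and 3233 normalized counts in TNIP2 Pulldown, against 7497, 7886 and 8638 in TNIP2 Input. HNRNPC, which binds runs of U and holds early transcripts in particles, had 6088, 5124 and 4717 in TNIP2 Pulldown, against 9708, 8728 and 11765 in TNIP2 Input. Both lay below every Input library of either construct in all 3 TNIP2 Pulldown libraries. HNRNPH1 fell by 1.36 on the log2 scale (SE 0.20, adjusted p = 3.2e-05), and HNRNPC fell by 0.92 (SE 0.16, adjusted p = 1.7e-04). HNRNPF and HNRNPH3, relatives of HNRNPH1, were not called, with log2 changes of -0.23 (SE 0.16, adjusted p = 0.25) and -0.03 (SE 0.37, adjusted p = 0.96). HNRNPF was called lower under quantile normalization (-0.79, adjusted p = 2.2e-04) and after centring on ribosomal protein genes (-0.76, adjusted p = 0.0056).

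In FPKM, HNRNPDL held 23.9%, 33.9% and 18.1% of the summed hnRNP values in TNIP2 Pulldown, against 5.78%, 6.48% and 5.26% in TNIP2 Input. HNRNPC held 7.54%, 4.55% and 6.74% in TNIP2 Pulldown, against 12.5% to 18.8% in TNIP2 Input. The first gene's shares were higher and the second's lower in every Pulldown library. By mean FPKM the order in TNIP2 Pulldown began with HNRNPDL (631.6), HNRNPL (322.7) and HNRNPK (205.9), although HNRNPL led in TNIP2 Pulldown 3. In TNIP2 Input it began with HNRNPH1 (307.3), HNRNPC (272.2) and HNRNPK (203.0), with HNRNPDL (106.7) in place 6. The summed hnRNP FPKM, at 2183, 3042 and 1891 in TNIP2 Pulldown and 1881, 1886 and 1691 in TNIP2 Input, parted only narrowly, at 1891 against 1886.

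Other hnRNP genes were not called. HNRNPK, which binds runs of C, had 9556, 5432 and 6757 normalized counts in TNIP2 Pulldown, against 7408, 6633 and 7403 in TNIP2 Input, a log2 change of -0.02 (SE 0.18, adjusted p = 0.94). Its Pulldown libraries surrounded its Input libraries. That change became -0.69 (adjusted p = 0.0028) under quantile normalization and -0.55 (adjusted p = 0.032) after centring on ribosomal protein genes. HNRNPR had 3736, 4042 and 1724 in TNIP2 Pulldown, against 3108, 3026 and 2050 in TNIP2 Input, and library 3 was the lowest in both groups. Its log2 change of 0.14 (SE 0.26, adjusted p = 0.65) became 0.34 (adjusted p = 0.016) with both libraries numbered 3 left out, and 0.54 (adjusted p = 0.012) without TNIP2 Pulldown 3. HNRNPA3, a relative of HNRNPA1, had a log2 change of -0.21 (SE 0.29, adjusted p = 0.55). After centring on ribosomal protein genes it was -0.74 (adjusted p = 0.018). HNRNPA1L2, an expressed copy of HNRNPA1 whose reads could be split with it, had 160, 417 and 181 in TNIP2 Pulldown, against 147, 164 and 152 in TNIP2 Input. Its log2 change was 0.57 (SE 0.30, adjusted p = 0.11), or 0.83 (adjusted p = 0.037) without TNIP2 Pulldown 1.

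Within groups the members had a median SD of 0.25 on the log2 scale, beside 0.28 over all genes, yet 4 of the 32 lay above percentile 90 of all genes tested, namely HNRNPA2B1, HNRNPA1, HNRNPUL2 and HNRNPH3. HNRNPA1 and HNRNPA2B1 are abundant repressors of splicing that are closely related. HNRNPA1 had 1181, 1455 and 748 normalized counts in TNIP2 Pulldown and 1423, 1621 and 322 in TNIP2 Input, and 1100, 1301 and 596 in Control Pulldown and 656, 1126 and 1332 in Control Input. HNRNPA2B1 had 2371, 6909 and 2897 in TNIP2 Pulldown and 4549, 5341 and 1154 in TNIP2 Input, and 3253, 4142 and 2404 in Control Pulldown and 1188, 2735 and 3204 in Control Input. Both were low in TNIP2 Input 3, by 1.49 and 1.40 on the log2 scale relative to the group mean for HNRNPA1 and HNRNPA2B1, and low in Control Input 1. The same-numbered Pulldown-to-Input ratios with the TNIP2 fragment were 0.830, 0.898 and 2.32 for HNRNPA1 and 0.521, 1.29 and 2.51 for HNRNPA2B1, so the ratio above 2 came from the pair numbered 3. Their log2 changes were 0.26 (SE 0.50, adjusted p = 0.67) and 0.25 (SE 0.53, adjusted p = 0.70). Without TNIP2 Input 3 the sign turned for both, to -0.48 (adjusted p = 0.26) for HNRNPA1 and -0.45 (adjusted p = 0.40) for HNRNPA2B1. With both libraries numbered 3 left out the values were -0.21 (adjusted p = 0.59) and -0.28 (adjusted p = 0.61). HNRNPH3 had a log2 change of -0.03 (adjusted p = 0.96), which was -0.50 (adjusted p = 0.19) without TNIP2 Input 3 and -0.49 (adjusted p = 0.22) without both.

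HNRNPUL2, a relative of HNRNPU and the least abundant member by FPKM, had 55, 65 and 70 normalized counts in TNIP2 Pulldown, against 145, 183 and 36 in TNIP2 Input. TNIP2 Input 3 lay below the Pulldown libraries and the other Input libraries above them. A separate row, HNRNPUL2-BSCL2, read 0 in every library. How reads that match both rows were counted is not stated in the labels, so the level of HNRNPUL2 is uncertain to that extent. The log2 change of HNRNPUL2 was -0.64 (SE 0.46, adjusted p = 0.25) with all libraries, or -1.17 (adjusted p = 0.046) after centring on ribosomal protein genes. It was -1.36 (adjusted p = 0.0013) without TNIP2 Input 3, and -1.43 (adjusted p = 9.2e-04) with both libraries numbered 3 left out. With both of those libraries left out, 15 members were higher and 7 lower in TNIP2 Pulldown than in TNIP2 Input. The share of all genes called in that fit is not given here. Over the 20 hnRNP genes, 14 lay below their group mean in TNIP2 Input 3, with a median of -0.31, whereas 3 of the 12 SR genes did, with a median of 0.15. In Control Input 1, 26 of the 32 genes lay below the group mean, with a median of -0.14, beside 0.02 over all genes. In TNIP2 Pulldown 2, 24 of the 32 lay above it, with a median of 0.235, beside 0.007 over all genes. The members' medians were -0.118 in TNIP2 Pulldown 1 and -0.159 in TNIP2 Pulldown 3, beside 0.032 and -0.045 over all genes.

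**Figure D4:**
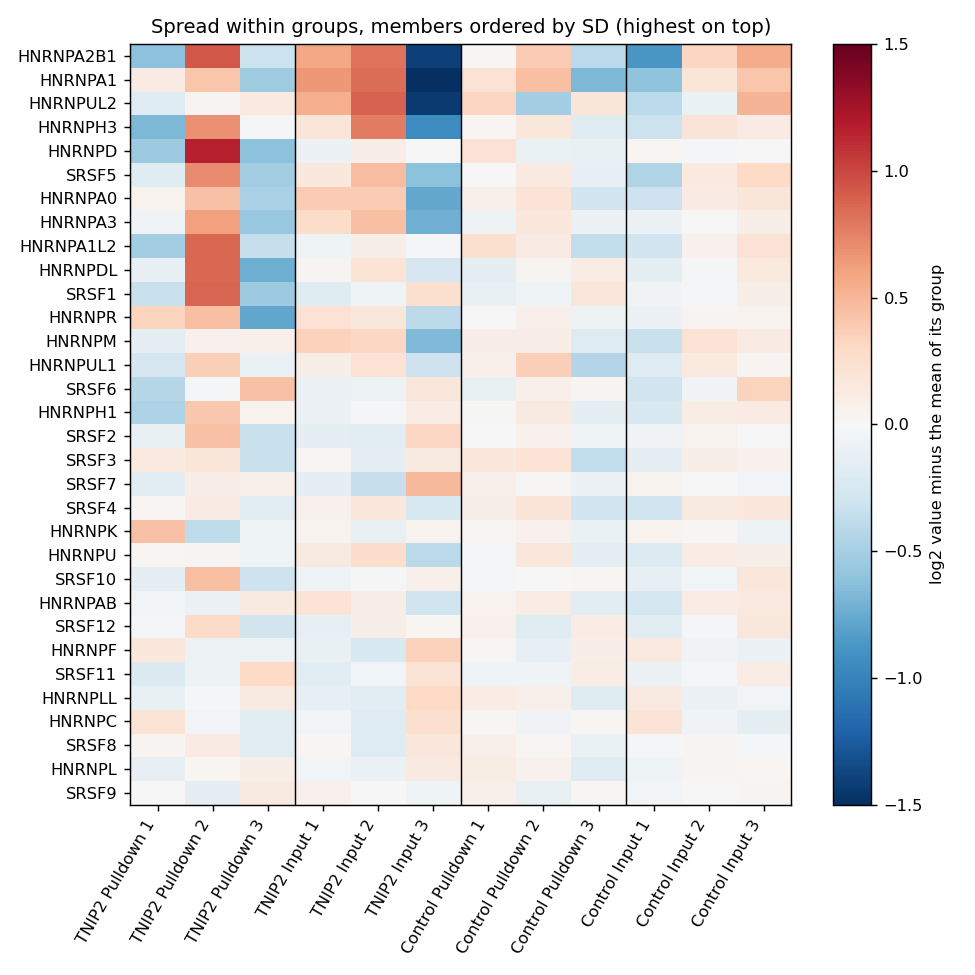
Deviation of each gene's log2 value from the mean of its group (colour, red above and blue below) in the 12 libraries (columns) for the 32 genes (rows, ordered by SD within groups). HNRNPA1, HNRNPA2B1 and HNRNPUL2 fall by 1.40 to 1.49 in TNIP2 Input 3, and HNRNPD lies highest in TNIP2 Pulldown 2.

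Set against Control Pulldown, which asks what the TNIP2 fragment adds over the tag in purified RNA, 13 members were again higher and 6 lower, 59.4% of the members beside 59.4% of all genes tested (30.6% higher, 28.7% lower). The split was 11 and 11 under quantile normalization and 11 and 10 after centring on ribosomal protein genes. The median of all genes was -0.01 and -0.38 there, and shares of all genes called are again not given. Libraries did not overlap for 13 members upward and 7 downward, beside 31.5% and 29.5% of all genes (61.0% in all). This comparison shares the TNIP2 Pulldown libraries with the one above. HNRNPDL had 5267, 5971 and 6268 normalized counts in Control Pulldown, below the 16515 to 49797 of TNIP2 Pulldown, a log2 change of 2.24 (adjusted p = 9.9e-06). HNRNPD had 871, 699 and 695 in Control Pulldown, and its change of 1.76 (adjusted p = 3.6e-04) was smaller than the 2.30 over TNIP2 Input. HNRNPUL1 changed by 1.66 (adjusted p = 1.4e-05), HNRNPL by 1.21 (adjusted p = 3.6e-06), SRSF4 by 1.39 (adjusted p = 9.3e-06) and HNRNPH1 by -1.28 (adjusted p = 5.2e-05). HNRNPUL2 had 169, 95 and 154 in Control Pulldown, above all TNIP2 Pulldown libraries, and its change of -1.09 did not pass the test (adjusted p = 0.053), although it did without TNIP2 Input 2 (adjusted p = 0.033), TNIP2 Input 3 (0.0024) or Control Pulldown 2 (0.040), and with only the 6 libraries compared (0.0056). HNRNPU fell by 0.54 (adjusted p = 0.016), a call lost without Control Pulldown 2 (-0.46, adjusted p = 0.074).

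With the tag alone, 0 of the 32 genes differed between Control Pulldown and Control Input by limma's test, beside 0.137% of all genes, and none reached an unadjusted p under 0.05 (0 of 32). A fit by voom on the recovered reads likewise called 0. Log2 changes ran from -0.21 to 0.56, with a median of 0.06. HNRNPD was the only member whose Control Pulldown libraries, at 871, 699 and 695 normalized counts, all lay above those of Control Input, at 539, 517 and 525 (log2 change 0.51, adjusted p = 1.0). SRSF2 and HNRNPLL were the only ones whose Control Pulldown libraries all lay below. Among all genes 5.83% were so separated upward and 7.15% downward. The 3 Control Pulldown libraries were the shallowest of the series, which limits this comparison most for low genes.

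Between extracts, 0 of the 32 genes differed between TNIP2 Input and Control Input by limma's test, beside 0.00684% of all genes. At an unadjusted p under 0.05 there were 0 of the 32 members and 104 of all 14627 genes, with the same pooled spread. By voom the number was also 0. Log2 changes ran from -0.16 to 0.48, with a median of 0.05. HNRNPH1, at 7497, 7886 and 8638 normalized counts in TNIP2 Input against 5661, 7207 and 7268 in Control Input, and HNRNPL were the 2 members whose groups did not overlap, both higher, beside 3.62% of all genes upward and 5.32% downward (8.94% in all).

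The enrichment, Pulldown over Input, was also compared between constructs, as its value with the TNIP2 fragment minus its value with the tag. This difference was called for 16 of the 32 members, 11 higher and 5 lower, beside 42.8% of all genes (22.6% higher, 20.2% lower). This split was 6 and 9 under quantile normalization and 3 and 11 after centring on ribosomal protein genes. The median difference of all genes was -0.03 and -0.63 under these scalings, and shares of all genes called are not given. SRSF2 had the largest difference among the members, 2.60 (SE 0.27, adjusted p = 6.9e-06), followed by HNRNPDL at 2.40 (SE 0.40, adjusted p = 3.0e-04). SRSF9 had the lowest, -1.91 (SE 0.18, adjusted p = 4.6e-06). HNRNPM (0.85, adjusted p = 0.052), HNRNPA0 (0.97, adjusted p = 0.072) and HNRNPU (-0.61, adjusted p = 0.064) were called between TNIP2 Pulldown and both other groups but not here. With the replicate number as a block within each construct their adjusted p became 0.030 for HNRNPM, 0.0044 for HNRNPA0 and 0.026 for HNRNPU, giving 13 higher and 6 lower. Without a block, HNRNPA0 was called on leaving out TNIP2 Pulldown 3 (0.021), TNIP2 Input 1 (0.044) or TNIP2 Input 2 (0.043). HNRNPM was called without TNIP2 Input 1 (0.030), TNIP2 Input 2 (0.031) or Control Input 1 (0.032), and HNRNPU without TNIP2 Input 3 (0.0063). HNRNPU was also called under quantile normalization (-1.32, adjusted p = 0.0013) and after centring on ribosomal protein genes (-1.26, adjusted p = 0.0019).

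Close relatives can be set side by side in TNIP2 Pulldown against TNIP2 Input. SRSF2 and SRSF8 were both higher, as were HNRNPL with HNRNPLL, HNRNPD with HNRNPDL, and SRSF4 with SRSF5. In contrast, SRSF6 was lower than Input beside SRSF4 and SRSF5, HNRNPAB was lower beside HNRNPD and HNRNPDL, and HNRNPU was lower beside HNRNPUL1. In 3 further sets a member was called and its relatives were not, namely SRSF9 without SRSF1, SRSF7 without SRSF3, and HNRNPH1 without HNRNPF and HNRNPH3. These 3 contrasts changed with the scaling, and so did some of the sets above. Under quantile normalization SRSF1 (-0.68, adjusted p = 0.025), SRSF3 (-0.87, adjusted p = 3.6e-04) and HNRNPF (-0.79, adjusted p = 2.2e-04) were called lower. After centring on ribosomal protein genes SRSF3 (-0.75, adjusted p = 0.0030) and HNRNPF (-0.76, adjusted p = 0.0056) were called lower. SRSF7 was not called under either scaling. Of the pairs that were both higher, HNRNPL (0.47, adjusted p = 0.066) and HNRNPLL (0.11, adjusted p = 0.71) lost their calls after that centring. SRSF5 lost its call under quantile normalization (0.61, adjusted p = 0.098). Whether relatives differed from each other was not tested in any of the sets named here.

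Length and level were set beside the calls. Recovered exonic length was 1.66 to 4.37 kb (median 2.81) for the 13 higher genes, 1.17 to 6.89 kb (median 2.79) for the 6 lower and 1.94 to 10.04 kb (median 3.62) for the 13 not called. Across the 32 genes, Pearson's r between length and the TNIP2 Pulldown over TNIP2 Input change was 0.02 and Spearman's rho -0.05, beside 0.21 and 0.22 over all 14627 genes. These are descriptions across genes of the same libraries, and genes are not independent replicates. Median Control Input FPKM was 53.5 for the higher genes, 160 for the lower and 47.4 for those not called. Across the 32 genes, r between Control Input FPKM and the change was -0.10 and rho -0.20, beside -0.14 and -0.13 over all genes.

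Genes that act with these families were counted from lists compiled by function. Their counts were not followed under the other scalings, under which the split of the members changed. Of 16 hnRNP proteins under other symbols, 6 were higher and 6 lower in TNIP2 Pulldown than in TNIP2 Input, with a median of -0.17. Over all genes tested 58.1% were called in this comparison, 29.8% higher and 28.3% lower. CIRBP, a cold-inducible RNA-binding protein, had 600, 539 and 559 normalized counts in TNIP2 Pulldown, against 2658, 2875 and 2379 in TNIP2 Input, 4.64-fold lower without overlap (adjusted p = 4.9e-08). RBMX, also known as hnRNP G, was 3.59-fold lower (adjusted p = 5.3e-08), whereas KHSRP, which promotes decay of AU-rich messages, was 2.65-fold higher (adjusted p = 3.3e-06). Of 25 SR-like and SR-related proteins, 13 were higher and 3 lower (64.0% called, beside 58.1% of all genes), with a median of 0.69. SFSWAP, a splicing regulator with an SR domain, had 2780, 3613 and 2973 in TNIP2 Pulldown, against 580, 608 and 709 in TNIP2 Input, 4.92-fold higher without overlap (adjusted p = 2.9e-08). SON, a scaffold of nuclear speckles, was 2.98-fold higher (adjusted p = 7.2e-07) and RSRC1 2.83-fold higher (adjusted p = 5.9e-07).

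The kinases that phosphorylate SR proteins were called in all 7 genes tested, 6 higher and 1 lower, with a median of 0.98. Among all genes 29.8% were higher and 28.3% lower. For CLK1 and CLK2 the libraries of the groups overlapped. In the difference of enrichments 5 of the 7 were called, 4 higher and 1 lower, beside 42.8% of all genes. CLK3, a nuclear kinase of SR proteins, had 2388, 2747 and 4599 normalized counts in TNIP2 Pulldown, against 486, 469 and 590 in TNIP2 Input, 6.07-fold higher without overlap (adjusted p = 1.8e-07). The SR protein kinases SRPK2 and SRPK1 parted, with SRPK2 2.94-fold higher (adjusted p = 5.6e-07) and SRPK1 2.15-fold lower (adjusted p = 5.3e-06). SRPK1 had 1104, 1033 and 1195 in TNIP2 Pulldown, against 2443, 2578 and 2167 in TNIP2 Input. Of the 3 nuclear import receptors that carry hnRNP or SR proteins, 1 was higher and 2 lower, beside the same 58.1% of all genes called. TNPO2, which imports hnRNP proteins, had 630, 624 and 1242 in TNIP2 Pulldown, against 1133, 1274 and 1292 in TNIP2 Input, and its groups overlapped through TNIP2 Pulldown 3 (1.56-fold lower, adjusted p = 0.020).

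**Figure D5:**
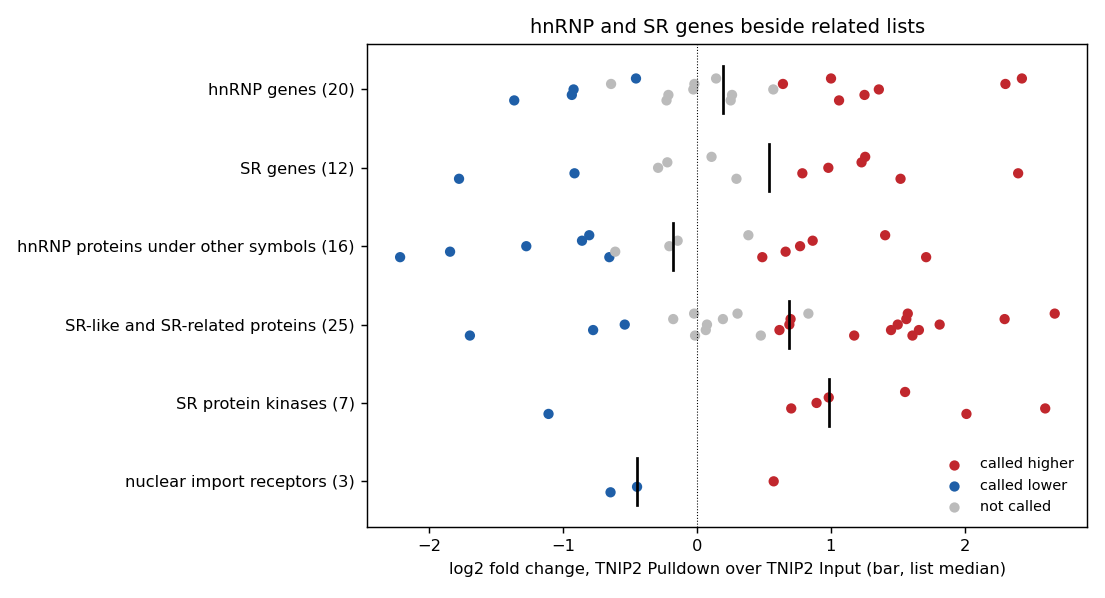
Log2 fold change of TNIP2 Pulldown over TNIP2 Input (x axis) for each gene of the hnRNP and SR families and of 4 related lists (y axis, number of genes in parentheses), coloured by call, with the list median as a bar. The median lies at 0.20 for hnRNP genes, 0.54 for SR genes, 0.69 for SR-like proteins and 0.98 for SR kinases, and each list holds called genes on both sides of 0.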

How the data were processed

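The authors deposited normalized counts and FPKM per gene symbol for the 12 libraries. The submitters' processing notes name TopHat2 2.0.14, DESeq2 1.6.3 and hg19, while the counter, strand setting and annotation are unstated in the labels. The deposited normalized counts are treated as a score, since they are scaled and rounded. Whole reads and exonic lengths were recovered from steps in the deposited FPKM. In each library 97.78% to 100% of the low values checked were whole within 0.1 reads. These values numbered from 12 in Control Input 3 to 154 in TNIP2 Pulldown 3. The step was fitted to them, so this share is not an independent check. Columns lettered for the second construct were given to TNIP2 by elimination. The test took the 14627 genes that reached 10 in at least 3 libraries, on log2(value + 1) in limma 3.58.1 (R 4.3.3), with lmFit, eBayes with trend, 4 group means and 8 residual degrees of freedom. Two-sided p-values were adjusted by Benjamini-Hochberg over these genes. The fit was tested on simulated data. A read-based alternative used voom.

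Values per library are given for the 5 highest and 5 lowest called members of each family in TNIP2 Pulldown against TNIP2 Input and for members whose call or spread turns on a library. Up to 3 genes of each related list are named, those called in the difference of enrichments with the smallest p there. Members and lists were chosen with earlier results of these data known. Replicate numbers come from the labels. Deviations of same-numbered libraries correlated at 0.37 to 0.50 between TNIP2 Pulldown and TNIP2 Input, and at 0.07 to 0.08 between Control Pulldown and Control Input.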

Additional observations from a re-analysis of the deposited data

Results flagged for a closer look

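For 16 genes the Pulldown-over-Input change with the TNIP2 fragment differed from that with the tag alone by limma's test of the difference, over 3 libraries in each of 4 groups. Differences are on the log2 scale, with the adjusted p over 14627 genes. Among hnRNP genes they were 2.40 for HNRNPDL (3.0e-04), 1.79 for HNRNPD (0.0068), 1.48 for HNRNPUL1 (0.0015), 1.07 for HNRNPL (5.5e-04) and 0.85 for HNRNPLL (0.0078). Lower hnRNP genes were HNRNPH1 at -1.55 (4.7e-04), HNRNPAB at -1.15 (0.0014) and HNRNPC at -0.80 (0.010). Among SR genes they were 2.60 for SRSF2 (6.9e-06), 1.605 for SRSF8 (3.2e-05), 1.18 for SRSF4 (0.0016), 1.18 for SRSF5 (0.039), 1.07 for SRSF7 (0.0041) and 0.67 for SRSF11 (0.025). SRSF9 stood at -1.91 (4.6e-06) and SRSF6 at -1.24 (0.0035).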

How the results depend on the processing

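Of the 19 members called in TNIP2 Pulldown against TNIP2 Input, 12 stayed called under every alternative run, as did 15 of 19 against Control Pulldown and 8 of 16 in the difference of enrichments. Among the latter were SRSF2, SRSF8, SRSF9, SRSF6, HNRNPDL, HNRNPH1, HNRNPAB and HNRNPC. Quantile normalization gave 10 lower members in TNIP2 Pulldown against TNIP2 Input, 11 lower against Control Pulldown, and 6 higher and 9 lower in the difference. With values centred on ribosomal protein genes there were 8 higher and 12 lower over TNIP2 Input, 10 lower against Control Pulldown, and 3 higher and 11 lower in the difference. The cause of these changes was not tested. Shares of all genes called under the alternatives are not given here, so the counts in this section describe the members alone. Among values called under either setting, signs turned for SRSF1 (-0.68 over TNIP2 Input), SRSF3 (-0.67 over Control Pulldown) and SRSF11 (-0.013 in the difference) under quantile normalization, and for HNRNPR (0.39 over Control Pulldown) with both TNIP2 libraries numbered 3 left out, an alternative chosen after seeing the data. Values called in neither setting turned sign 94 times more, in 10 genes (HNRNPA1, HNRNPA1L2, HNRNPA2B1, HNRNPA3, HNRNPH3, HNRNPK, HNRNPR, SRSF1, SRSF3 and SRSF10). Leaving out 1 library gave 13 to 15 higher and 5 to 7 lower over TNIP2 Input, 13 to 14 and 6 to 7 over Control Pulldown, 9 to 12 and 5 to 7 in the difference, and 0 in both comparisons without TNIP2 Pulldown. In the difference, SRSF5 was lost (adjusted p 0.054 to 0.099) without TNIP2 Pulldown 2, TNIP2 Input 3, any Control Pulldown library, Control Input 2 or Control Input 3, and SRSF11 (0.050 to 0.071) without TNIP2 Input 1, TNIP2 Input 2, Control Pulldown 1, Control Pulldown 2, Control Input 2 or Control Input 3. The replicate number as a block gave 13 higher and 6 lower in TNIP2 Pulldown against TNIP2 Input and, in the difference, 13 and 6. It changed no call over TNIP2 Input. Depth limits Control Pulldown most, where 1 read was worth up to 2.86 normalized counts.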
